A study of Mus musculus with 11 samples.

Results

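The 34 genes described here encode the proteins that take glucose into the cell, break it down to lactate, and divert it into the pentose phosphate pathway, together with a few regulators of these steps. They were taken by symbol, and 31 of them were measured among the 18194 genes of the array; Gpi1, Eno1 and G6pdx were not analysed here, because no probe set was annotated with just one of these symbols. The 31 genes were read by 71 probe sets, and 19 of the genes had more than 1. By role, 3 of 3 glucose transporters, 3 of 3 hexokinases, 6 of 7 enzymes of upper glycolysis, 7 of 8 of lower glycolysis, 4 of 4 genes of lactate formation and export, 4 of 4 regulators and 4 of 5 enzymes of the pentose phosphate pathway were measured.

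B cells were purified from spleens of 6-week-old female mice by magnetic removal of other cells, 7 to 8 spleens being pooled for each lot, and were cultured for 2 h before RNA was extracted. The 11 Affymetrix Mouse Genome 430 2.0 arrays held 4 groups: NOD cells with anti-IgM (2 arrays), NOD cells in medium alone (3 arrays), NR4 cells with anti-IgM (3 arrays) and NR4 cells in medium alone (3 arrays). NOD is NOD/ShiLtJ, an inbred strain that becomes diabetic through autoimmunity, and NR4 is NOD.NOR-Chr4/DvsJ, which carries a stretch of chromosome 4 from the NOR strain on the NOD background, so all 4 groups share that background. Anti-IgM means F(ab')2 fragments of a goat antibody to mouse IgM at 10 µg/ml, which cross-link the B cell receptor. The series asks how the strains differ and, through the cultures, what receptor stimulation changes in each.

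Glycolysis turns glucose into pyruvate in a chain of cytosolic enzymes and yields ATP without oxygen. Glucose enters through facilitative transporters, hexokinases trap it as glucose 6-phosphate, and lactate dehydrogenase regenerates the NAD+ that the chain consumes. The pentose phosphate pathway branches off at glucose 6-phosphate and supplies NADPH and ribose for nucleotides. Resting B cells use little glucose, and activated B cells are known to take up more of it over the hours and days that precede division.

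The values are on a log scale taken as log2, and each probe set had been centred on its median over the 11 arrays. They therefore give differences between arrays and no levels, so genes cannot be ranked by abundance, and whether a gene was detected is unknown. Where several probe sets read 1 gene, their median was used. Differences were tested with limma over all 18194 genes with Benjamini-Hochberg adjustment, and a gene is said to have risen or fallen when its adjusted p lay below 0.05. The ± after a difference is its standard error.

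After 2 h of anti-IgM, averaged over the strains, 3 of the 31 genes rose and none fell. These were Eno2, Slc2a1 and Hk2: an enolase, a glucose transporter and a hexokinase. Of all 18194 genes, 0.715% rose and 0.841% fell (1.56% in either direction). With the replicate number as a block, Pdk1 also fell, 1 of the 31 genes against 1.81% of all genes. The median difference of the 31 genes was 0.13, against 0.0034 for all genes, and 24 of the 31 differences lay above 0, against 51.0% of all genes. Without NOD anti-IgM array 1 these were 0.086 and 19 of 31, and over all arrays left out in turn the median ranged between 0.086 and 0.17. At an unadjusted p below 0.05, 6 of the 31 were higher (Eno2, Slc2a1, Hk2, Pkm, Pgam1 and Ldha) and 2 were lower (Pdk1 and Rpia). Among all genes these shares were 4.13% and 7.25%. The 31 genes come from the same arrays and are not independent of each other.

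**Figure D1:**
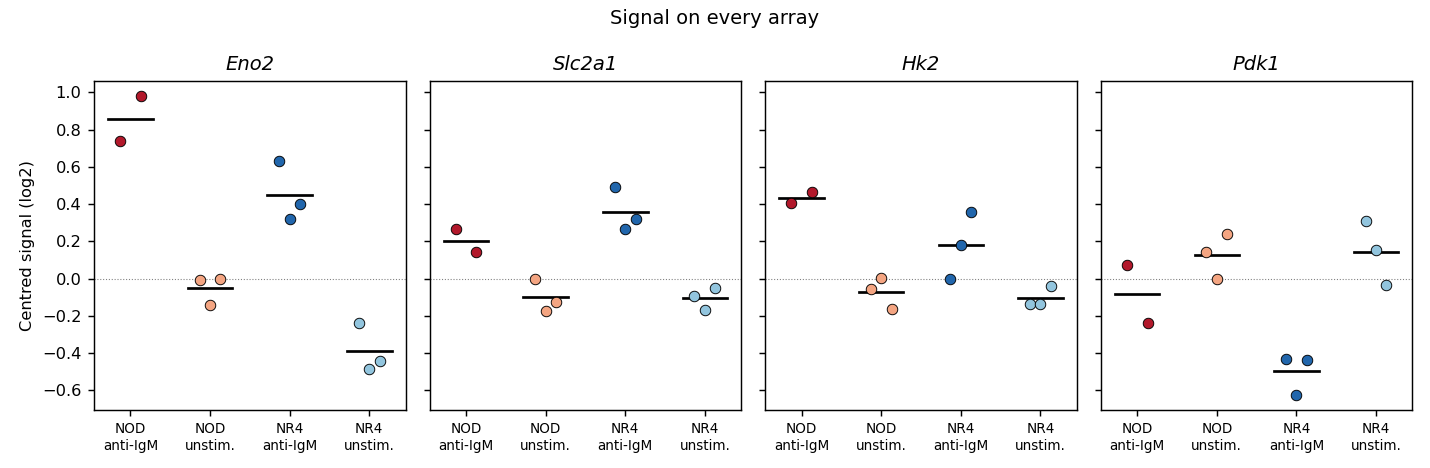
Centred log2 value on each array (points) and group mean (black lines) for Eno2, Slc2a1, Hk2 and Pdk1, by group, anti-IgM left of unstimulated in each strain. The anti-IgM arrays of Eno2, Slc2a1 and Hk2 lie above the unstimulated arrays in both strains, and those of Pdk1 lie below them in NR4.

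The promoters of the 3 genes that rose, and of Pdk1, which had the lowest difference, are printed because the E-box and the hypoxia response element, bound by MYC and by HIF-1, are textbook elements of glycolytic promoters. Each line is the 250 bases before the RefSeq transcription start (assembly GRCm38.p6), 5′ to 3′ on the strand of the gene. Capitals mark ACGTG or GCGTG on either strand, the core of the hypoxia response element.
Eno2, chr6:124769674-124769923, minus strand: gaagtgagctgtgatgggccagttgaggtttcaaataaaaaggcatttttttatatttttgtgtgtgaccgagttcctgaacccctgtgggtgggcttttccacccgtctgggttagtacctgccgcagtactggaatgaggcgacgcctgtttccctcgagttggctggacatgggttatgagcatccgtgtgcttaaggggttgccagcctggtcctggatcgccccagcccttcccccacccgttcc
Slc2a1, chr4:119108495-119108744, plus strand: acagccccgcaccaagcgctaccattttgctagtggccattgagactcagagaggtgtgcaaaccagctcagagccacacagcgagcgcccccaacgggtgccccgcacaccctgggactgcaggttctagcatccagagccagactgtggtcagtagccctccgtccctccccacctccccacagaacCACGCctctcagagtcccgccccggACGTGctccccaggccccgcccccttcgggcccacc
Hk2, chr6:82774455-82774704, minus strand: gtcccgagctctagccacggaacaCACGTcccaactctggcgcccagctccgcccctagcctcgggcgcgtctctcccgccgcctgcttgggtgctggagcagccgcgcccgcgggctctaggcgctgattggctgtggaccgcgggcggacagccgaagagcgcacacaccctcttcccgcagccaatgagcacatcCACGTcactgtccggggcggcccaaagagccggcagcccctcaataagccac
Pdk1, chr2:71872974-71873223, plus strand: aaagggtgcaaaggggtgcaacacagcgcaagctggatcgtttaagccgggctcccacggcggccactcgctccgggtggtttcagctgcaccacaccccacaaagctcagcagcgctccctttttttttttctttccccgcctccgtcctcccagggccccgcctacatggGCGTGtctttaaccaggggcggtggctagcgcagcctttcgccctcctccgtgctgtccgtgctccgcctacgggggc

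None of these windows held the E-box CACGTG, and that of Eno2 held no ACGTG or GCGTG either. The window of Slc2a1 held ACGTG at -36 to -32 and CACGC, the reverse complement of GCGTG, at -61 to -57, counted from the start. The window of Hk2 held CACGT, the reverse complement of ACGTG, at -226 to -222 and at -52 to -48, and that of Pdk1 held GCGTG at -78 to -74. Such windows were found for 30 of the 31 genes. Of these, 4 (13.3%) held CACGTG, against 7.56% of the 14453 windows of all tested genes that had one. ACGTG, which CACGTG contains, stood in 11 (36.7%) against 19.8%, and GCGTG in 16 (53.3%) against 38.8%. The GC box GGGCGG, bound by Sp1, stood in 19 (63.3%) against 49.9%. All were searched on both strands. The median GC content was 59.4% in the 30 windows and 57.6% in all, and the part of base composition in these shares was not tested. A match is a description of the letters and not evidence of binding.

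Among the glucose transporters, Slc2a1 (GLUT1, the widely expressed transporter) rose. Its values were 0.27 and 0.14 in NOD cells with anti-IgM, against 0.00, -0.17 and -0.13 in unstimulated NOD cells. They were 0.49, 0.26 and 0.32 in NR4 cells with anti-IgM, against -0.09, -0.17 and -0.05 in unstimulated NR4 cells. The stimulated arrays lay above the unstimulated ones in both strains without overlap. The averaged difference was 0.38 ± 0.07, a 1.30-fold rise (95% interval 0.22 to 0.54, adjusted p = 0.028 by limma), and its 3 probe sets gave 0.35 to 0.44. Of the 130 genes that rose, Slc2a1 ranked 121st by size. With any one of 8 of the 11 arrays left out, its adjusted p passed 0.05 and reached up to 0.12. It stayed below 0.05 without NOD unstimulated array 1 or NR4 anti-IgM array 1 or 2. The other transporters did not pass: Slc2a3 (GLUT3) differed by -0.08 ± 0.10 and Slc2a6 (GLUT6) by 0.13 ± 0.22.

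Among the hexokinases, Hk2, the inducible form that binds the outer mitochondrial membrane, rose. It stood at 0.40 and 0.46 in NOD cells with anti-IgM, against -0.06, 0.00 and -0.16 in unstimulated NOD cells. In NR4 the values were 0.00, 0.18 and 0.36 with anti-IgM, against -0.14, -0.14 and -0.04 without. Again the groups did not overlap in either strain, although the lowest stimulated NR4 array lay just above its unstimulated arrays. The averaged difference was 0.39 ± 0.08, a 1.31-fold rise (95% interval 0.22 to 0.57, adjusted p = 0.037 by limma) that rests on 1 probe set. The call was lost with 10 of the 11 arrays left out in turn, at an adjusted p of up to 0.16, and after quantile normalization (adjusted p = 0.056). It held without NR4 anti-IgM array 1. The call was also lost where the lowest-numbered probe set stood for each gene, and where each probe set was fitted on its own. Hk1, the constitutive form, differed by 0.03 ± 0.17 and Hk3, the form known from myeloid cells, by 0.12 ± 0.08.

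In upper glycolysis, from phosphofructokinase to triose phosphate isomerase, none of the 6 genes passed. The 3 phosphofructokinase subunits, which catalyse the committed step, differed by 0.25 ± 0.14 (Pfkl), -0.22 ± 0.11 (Pfkm) and 0.01 ± 0.14 (Pfkp). The aldolases Aldoa and Aldoc, which split fructose 1,6-bisphosphate, differed by 0.26 ± 0.13 and 0.09 ± 0.09. Tpi1, which interconverts the resulting triose phosphates, differed by 0.23 ± 0.12. Only Pfkm was below 0 in this role.

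In lower glycolysis, where ATP is gained, Eno2 alone of the 7 genes rose. Eno2 encodes the gamma subunit of enolase, best known from neurons. It stood at 0.74 and 0.98 in NOD cells with anti-IgM, against -0.01, -0.14 and 0.00 in unstimulated NOD cells. In NR4 it stood at 0.63, 0.32 and 0.40 with anti-IgM, against -0.24, -0.48 and -0.44 without. All 5 stimulated arrays lay above all 6 unstimulated arrays, across the strains. The averaged difference was 0.87 ± 0.09, a 1.83-fold rise (95% interval 0.68 to 1.07, adjusted p = 0.0012 by limma). It was the largest among the 31 genes, ranked 36th by size of the 130 genes that rose, and kept an adjusted p below 0.05 in each of 19 alternatives (0.00034 to 0.011). Eno2 has 1 probe set on the array, and Eno1, the gene of the ubiquitous enolase, is among the genes not analysed here.

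The other enzymes of this stretch did not pass. Pkm, the pyruvate kinase that makes pyruvate, stood at 0.22 and 0.10 in NOD cells with anti-IgM, against 0.00, -0.25 and -0.16 in unstimulated NOD cells. In NR4 it stood at 0.19, -0.05 and 0.22 with anti-IgM, against -0.25, -0.52 and 0.06 without, so the groups were apart in NOD and overlapped in NR4. Its averaged difference was 0.32 ± 0.11 (adjusted p = 0.25 by limma). Pgam1, the phosphoglycerate mutase, differed by 0.18 ± 0.07 (adjusted p = 0.33 by limma), Pgk1 by 0.11 ± 0.08 and Eno3, the muscle enolase, by 0.26 ± 0.13. Gapdh, read only by the array's 3 control probe sets, differed by 0.07 ± 0.11. Bpgm, which makes 2,3-bisphosphoglycerate and is best known from red cells, was the lowest at -0.25 ± 0.12.

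The 4 genes of lactate formation and transport all had differences above 0, and none passed. Ldha, the lactate dehydrogenase subunit that favours lactate, stood at 0.42 and 0.15 in NOD cells with anti-IgM, against -0.02, -0.12 and 0.00 in unstimulated NOD cells. In NR4 it stood at 0.09, -0.00 and 0.42 with anti-IgM, against -0.35, -0.35 and 0.33 without. The unstimulated NR4 array at 0.33 lay among the stimulated ones, and the averaged difference was 0.31 ± 0.14 (adjusted p = 0.44 by limma). Ldhb, the other subunit, differed by 0.23 ± 0.19. Slc16a3 (MCT4) exports lactate and Slc16a1 (MCT1) carries it either way; they differed by 0.40 ± 0.22 and 0.16 ± 0.13. Slc16a3 stood at 0.92 and -0.11 in NOD cells with anti-IgM, against 0.29, 0.00 and -0.39 in unstimulated NOD cells, so its arrays overlap. Its difference was 0.14 without NOD anti-IgM array 1 and 0.66 without NOD anti-IgM array 2. The difference of Slc16a1 was 0.083 without NR4 anti-IgM array 3 and 0.24 at most with another array left out. The 2 probe sets of Slc16a1 disagreed, at 0.38 and -0.06.

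**Figure D2:**
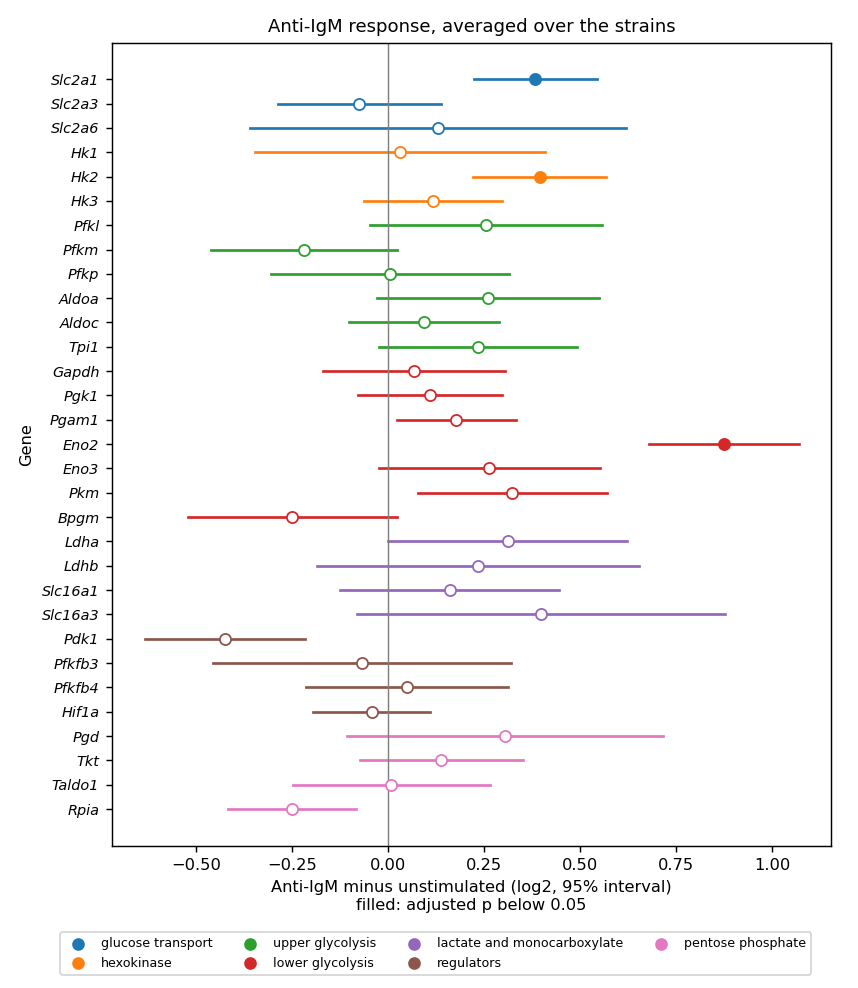
Difference of anti-IgM minus unstimulated cells (log2, averaged over the strains) for the 31 genes, with 95% intervals from limma, coloured by role. Filled points mark Eno2, Slc2a1 and Hk2, which had an adjusted p below 0.05; Pdk1 has the lowest difference.

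Among the regulators, Pdk1 was the lowest of the 31 genes. Pdk1 encodes a kinase that inactivates pyruvate dehydrogenase and so holds pyruvate back from the mitochondrion. Its values were 0.07 and -0.24 in NOD cells with anti-IgM, against 0.14, 0.00 and 0.24 in unstimulated NOD cells. In NR4 they were -0.43, -0.62 and -0.44 with anti-IgM, against 0.31, 0.15 and -0.03 without. The groups were apart in NR4 and overlapped in NOD. The averaged difference was -0.43 ± 0.09 (adjusted p = 0.059 by limma, and 0.029 with the replicate number as a block). It passed in 2 of 18 alternatives, those with the replicate number as a fixed or random block. Its 4 probe sets gave -0.83 to -0.29, of which 2 had an unadjusted p below 0.05 and 0 passed. In NR4 the difference was -0.64 ± 0.13, with an adjusted p of 0.070 by limma and, with the same block, 0.031. That block gives each replicate number 1 effect across both strains, so it is not a test paired on the NR4 cultures alone. In NR4 Pdk1 passed in 2 of 19 alternatives. The other regulators lay near 0: Hif1a, a subunit of the hypoxia factor HIF-1, at -0.04 (95% interval -0.20 to 0.11), and Pfkfb3 and Pfkfb4, which make and break down the phosphofructokinase activator fructose 2,6-bisphosphate, at -0.07 ± 0.17 and 0.05 ± 0.12.

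In the pentose phosphate pathway none of the 4 genes passed. Rpia, the ribose 5-phosphate isomerase, was at -0.13 and -0.05 in NOD cells with anti-IgM, against 0.02, 0.00 and 0.33 in unstimulated NOD cells. In NR4 it was at -0.05, -0.05 and -0.03 with anti-IgM, against 0.28, 0.24 and 0.23 without. It was the one gene of the 31 whose stimulated arrays lay below the unstimulated ones in both strains, as did 3.56% of all genes. Its averaged difference was -0.25 ± 0.08 (adjusted p = 0.17 by limma). Pgd, the second oxidative enzyme, which makes NADPH, differed by 0.31 ± 0.19, and by 0.15 without NR4 anti-IgM array 1 and 0.099 by its lowest-numbered probe set. Tkt (transketolase) differed by 0.14 ± 0.10 and Taldo1 (transaldolase) by 0.01 ± 0.12.

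**Figure D3:**
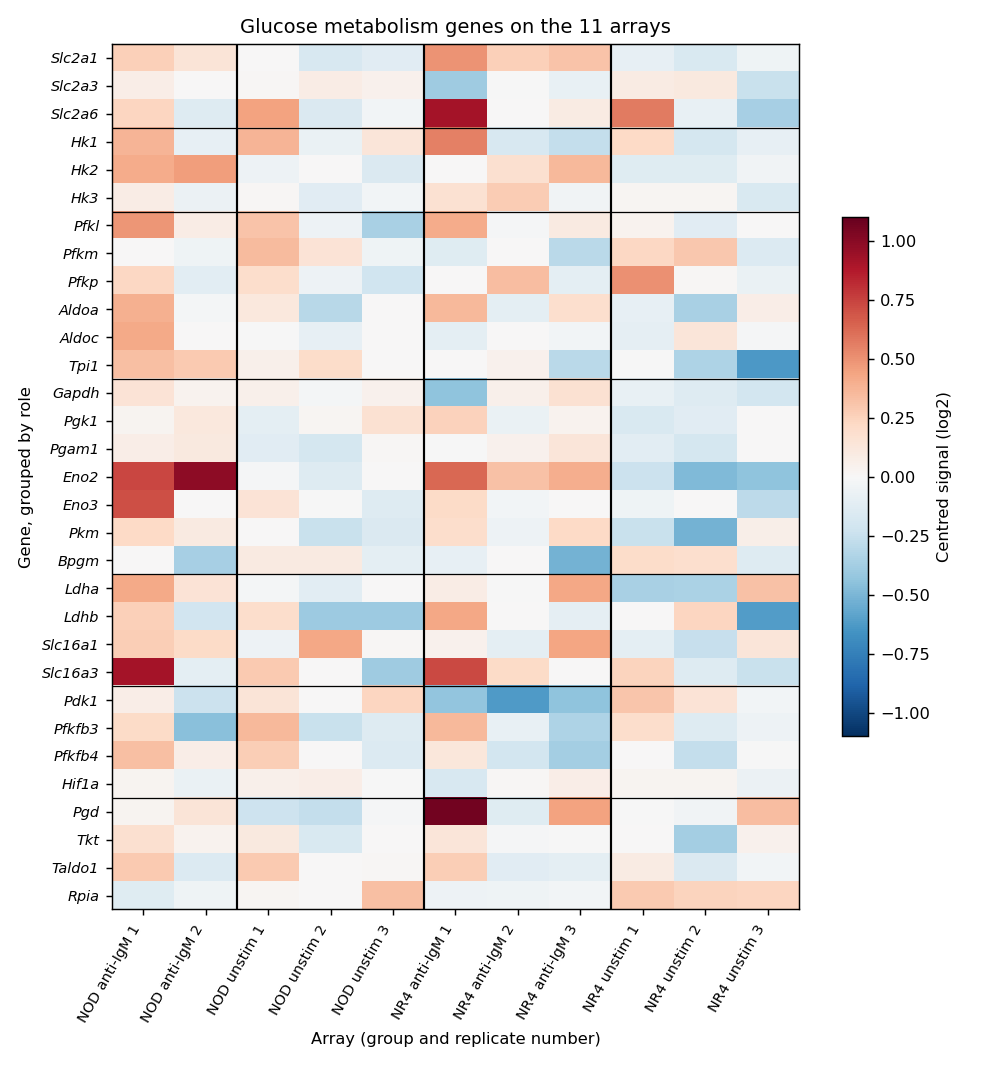
Centred log2 value of the 31 genes (rows, by role) on the 11 arrays (columns, by group, NOD before NR4 and anti-IgM before unstimulated in each). Red is above and blue below the gene's median over the arrays; Eno2 is red in the 5 stimulated columns.

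Within the strains, 1 of the 31 genes passed in each, Eno2 in both. In NOD its difference was 0.91 ± 0.13 (adjusted p = 0.044 by limma), where 0.115% of all genes passed; in NR4 it was 0.84 ± 0.12 (adjusted p = 0.016), where 0.412% passed. The NOD call was lost in 13 of 20 alternatives and the NR4 call in 5 of 20, among them quantile normalization in both (adjusted p = 0.054 in NOD and 0.066 in NR4). Slc2a1 differed by 0.30 ± 0.11 in NOD and 0.46 ± 0.10 in NR4, with adjusted p-values of 0.70 and 0.079; in NR4 with the replicate block the adjusted p of Slc2a1 was 0.033. Hk2 differed by 0.51 in NOD and 0.28 in NR4, with adjusted p-values of 0.24 and 0.39. With the block, 3 of the 31 genes passed in NR4 (Eno2, Slc2a1 and Pdk1) and 1.26% of all genes.

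Stimulated arrays lay above unstimulated ones without overlap for 9 of the 31 genes in NOD, against 8.27% of all genes, and for 3 in NR4, against 5.12%. The 9 in NOD were Slc2a1, Hk2, Aldoc, Tpi1, Pgam1, Eno2, Pkm, Ldha and Pgd. In both strains it held for Eno2, Slc2a1 and Hk2, against 2.08% of all genes. Differences were above 0 in both strains for 19 genes and below 0 in both for 7, against 29.1% and 30.9% of all genes, and were opposite for 5.

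No difference between the strains in the response passed for the 31 genes. The interaction passed for 0 of 18194 genes by limma (0%), with 255 (1.40%) at an unadjusted p below 0.05. Among the 31 that share was 1 gene, Pdk1, whose response was higher by 0.43 ± 0.19 in NOD than in NR4 (unadjusted p = 0.045 by limma, adjusted p = 1.00). For Eno2 the difference between the responses was 0.07 (95% interval -0.32 to 0.46), for Slc2a1 -0.16 (-0.48 to 0.16) and for Hk2 0.22 (-0.12 to 0.57). These intervals, from groups of 2 or 3 arrays, leave room for differences as large as their bounds.

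Between the strains, none of the 31 genes passed, averaged over the cultures (0.121% of all genes did), in unstimulated cells (0.0605%) or in stimulated cells (0.0495%). At an unadjusted p below 0.05, 2 of the 31 genes were higher in NOD in the average and none was lower, against 2.88% and 1.51% of all genes. These were Eno2 and Tpi1. Eno2 was higher in NOD by 0.37 ± 0.09 (adjusted p = 0.37 by limma), and Tpi1 by 0.40 ± 0.12 (adjusted p = 0.68), with probe sets from 0.33 to 0.63.

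Tpi1 stood at 0.33 and 0.28 in stimulated NOD cells, against 0.00, 0.05 and -0.29 in stimulated NR4 cells. It stood at 0.05, 0.20 and 0.00 in unstimulated NOD cells, against -0.01, -0.34 and -0.63 in unstimulated NR4 cells. NOD arrays lay above NR4 arrays in both cultures for Tpi1 and Eno2, 2 of the 31 genes, against 1.01% of all genes. Both genes lie on chromosome 6, with 6 others of the 31. Of these, Gapdh (0.17 ± 0.11), Hk2 (0.14 ± 0.08) and Slc2a3 (0.13 ± 0.10) differed upwards in NOD, and Ldhb (-0.08 ± 0.19), Rpia (-0.09 ± 0.08) and Bpgm (-0.02 ± 0.12) downwards, and none passed. In RefSeq gene order Tpi1 is the third protein-coding gene after Eno2, and Lrrc23 and Spsb2, between them, differed by -0.14 and 0.01. Of the marker lists, only that of plasma cells separated the strains in both cultures. The mean of 4 plasma cell markers lay at -0.07 to -0.05 in stimulated NOD cells, against 0.06 to 0.20 in stimulated NR4 cells, and at -0.15 to -0.03 in unstimulated NOD cells, against 0.06 to 0.07 in unstimulated NR4 cells. Xbp1, of that list, differed by -0.23 (adjusted p = 0.76 by limma). The means of the NK and cytotoxic list and of the T cell list overlapped between the strains in both cultures. Of 5 NK and cytotoxic markers, 3 differed upwards in NOD, with a range of -0.12 to 0.96 and a median of 0.19. Gzma was the highest of these (adjusted p = 0.94 by limma). Of 5 T cell markers, 3 differed upwards in NOD, with Cd3g at 1.02 (adjusted p = 0.41 by limma) and Cd4 at -0.72 (adjusted p = 0.072 by limma). None of these passed, and their part in the strain values was not tested.

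Of the measured genes, Slc2a1 and Pgd lie on chromosome 4, the chromosome that differs in origin between the strains; whether they lie in the exchanged stretch is not given in the sources used here. Slc2a1 differed by -0.08 ± 0.07 between NOD and NR4. Pgd, the lowest of the 31 genes in this comparison, differed by -0.32 ± 0.19. It stood at 0.03 and 0.14 in stimulated NOD cells, against 1.06, -0.13 and 0.44 in stimulated NR4 cells. In unstimulated cells it stood at -0.22, -0.26 and -0.01 in NOD, against -0.00, -0.04 and 0.34 in NR4. The value of 1.06 came from NR4 anti-IgM array 1, and without that array the difference was -0.17; by the lowest-numbered probe set it was -0.0088.

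**Figure D4:**
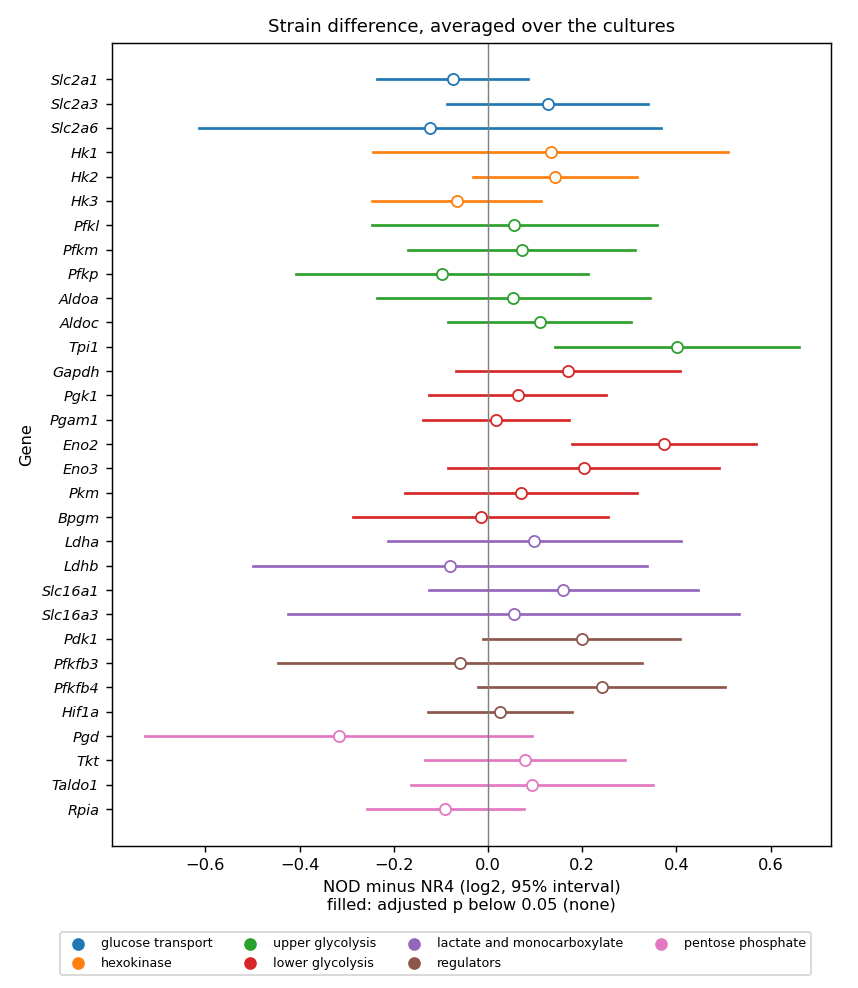
Difference of NOD minus NR4 (log2, averaged over the cultures) for the 31 genes, with 95% intervals from limma, coloured by role. No gene had an adjusted p below 0.05; Tpi1 and Eno2 lie highest and Pgd lowest.

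Of the 19 genes with several probe sets, all probe sets changed the same way after anti-IgM for 10 and disagreed in direction for 9. Differences of Hk1, Pfkp, Bpgm, Slc16a1, Pfkfb3, Hif1a, Tkt, Slc2a3 and Gapdh thus depend on which probe set is read. For Gapdh the probe sets near the 3′ end, in the middle and near the 5′ end differed by 0.17, 0.08 and -0.13.

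**Figure D5:**
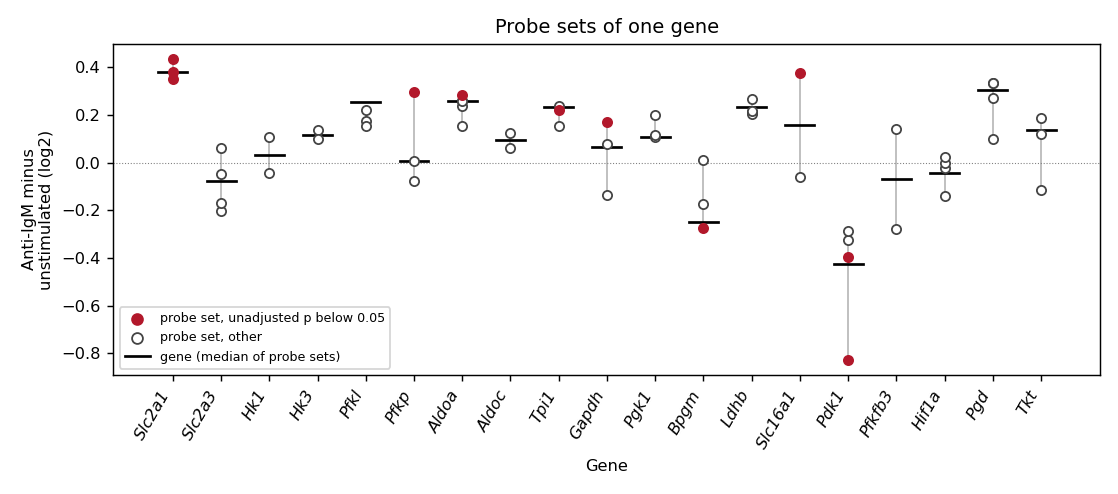
Difference of anti-IgM minus unstimulated cells (log2, averaged over the strains) for each probe set of the 19 genes with more than 1; red points had an unadjusted p below 0.05, and black lines are the gene values, fitted after the median was taken on each array, which can lie outside the probe sets as for Pfkl. The probe sets of Slc2a1 lie together between 0.35 and 0.44, and those of Pdk1 spread between -0.83 and -0.29.

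Other genes of these pathways, listed alongside the 31, were described in the same way. None of 31 further genes of glucose entry, glycolysis and its branches passed in the averaged response, with a median of 0.0019; Slc2a10, a transporter, differed by 0.23 and Slc16a7 (MCT2) by -0.41. None of 13 genes of pyruvate entry into the mitochondrion passed (median -0.069), the lowest being Pdp1, a phosphatase that activates pyruvate dehydrogenase, at -0.53 (adjusted p = 0.17 by limma). None of 19 genes of the HIF pathway passed (median 0.03), and none of 13 genes of glycogen and hexosamine metabolism did (median -0.035). Of 24 upstream growth and glucose regulators, 2 rose and none fell, against 0.715% and 0.841% of all genes. Those that rose were Myc, a driver of glycolytic genes in growing cells, by 1.46 ± 0.18 (adjusted p = 0.0049 by limma), and Irf4, a factor of B cell activation, by 0.79 ± 0.07 (adjusted p = 0.00064 by limma). The median of the 24 was -0.015. At an unadjusted p below 0.05, 3 of them were higher and 5 lower, against 4.13% and 7.25% of all genes. The lists were chosen with earlier results of these data known.

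Some cell type markers and some measures of RNA quality differed between the cultures. Of 4 measured pan B markers, Cd79b and Ms4a1 fell after anti-IgM, by 0.62 and 0.51. The mean over the 4 lay at -0.37 to -0.10 in stimulated NOD cells, against 0.07 to 0.12 in unstimulated NOD cells. In NR4 it lay at -0.37 to -0.20 with anti-IgM, against -0.07 to 0.22 without. Of 4 dendritic markers, Itgax rose by 0.50, and the median difference of the 4 was 0.055. The list means were 0.10 to 0.19 with anti-IgM in NOD, against -0.09 to 0.04 without. In NR4 they were 0.03 to 0.17 against -0.19 to 0.09, which overlap. None of the T, NK, myeloid, erythroid, platelet or plasma cell markers passed. Cd14, a myeloid marker, came nearest at 0.58 ± 0.13 (adjusted p = 0.063 by limma). Of the 8 measured markers of its list 4 differed upwards, with a median of -0.03. The part of all these markers in the results was not tested, and because levels were removed, absent markers cannot be shown. In bulk RNA, fewer cells of a type and less RNA per cell cannot be told apart.

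The medians of the 31 genes on single arrays were 0.23 and 0.00 in NOD cells with anti-IgM, against 0.06, -0.05 and -0.01 in unstimulated NOD cells. They were 0.13, -0.00 and 0.00 in NR4 cells with anti-IgM, against 0.00, -0.14 and -0.05 in unstimulated NR4 cells. In each of the 4 groups the array numbered 1 was the highest, and the part of this in the results was not tested. Of 4 control genes with 3′ and 5′ probe sets, Gapdh and Actb had their largest 3′ over 5′ difference on NR4 anti-IgM array 1, at 1.05 and 0.86. On the other 10 arrays this difference lay between -0.16 and 0.42 for Gapdh and between -0.03 and 0.19 for Actb. The other control genes went the other way there: Tfrc was at -0.48, against -0.40 to 0.41 on the other 10 arrays, and Pcx at -0.27, against -0.27 to 0.38. Without that array Eno2, Slc2a1 and Hk2 still rose, while 110 genes in all rose and 148 fell. In NOD the 3′ over 5′ difference of Actb was also higher with anti-IgM, at 0.19 and 0.17, against -0.03, -0.03 and 0.00 without. For Gapdh it was 0.24 and 0.10 in NOD with anti-IgM, against 0.01, -0.05 and -0.16 without. In NR4 both genes overlapped between the cultures, as did Tfrc and Pcx in each strain. The part of RNA quality in the results was not tested.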

How the data were processed

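Splenic B cell RNA was amplified in a single round, biotin-labelled and hybridized to 11 arrays, per the labels. The authors deposited 1 table of 45101 probe sets, computed by RMA according to the submitters' processing notes. Its values are taken as log2; the software, its version and the log base are not given in these sources. Each probe set has its median at exactly 0 across arrays, so the deposited log2 values had also been centred, which leaves differences and removes levels. Arrays carry no read depth; their number sets how precise a difference is.

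Gene names came from the platform annotation, by probe set (34958 with 1 symbol, 932 with several, 9211 with none). A gene is the median of its 1-symbol probe sets, 13 control probe sets included. limma 3.58.1 in R 4.3.3 fitted 4 group means to the 11 arrays, with 7 residual degrees of freedom, empirical Bayes moderation and Benjamini-Hochberg adjustment over 18194 genes in each of 7 two-sided comparisons. Replicates are separate lots of pooled animals, but the cultures within a strain share their lots. Correlations of deviations between same-numbered arrays were 0.59, 0.21 and 0.51 for unstimulated NOD and NR4, and 0.33, 0.22 and 0.47 for the NR4 cultures. All lay above the limit of 0.1, so these were taken as paired. The main fit had no block and did not use this pairing, which enters only in the alternatives with a replicate block. The block gives each replicate number 1 effect across all 4 groups, the NOD anti-IgM arrays included. Some different-numbered pairs passed the limit too, such as NR4 unstimulated 1 with NR4 anti-IgM 2 (0.18). The 2 NOD anti-IgM arrays deviate from their mean by equal and opposite amounts, so each of their correlations recurs with the opposite sign. NOD unstimulated 3 stood at -0.58 with NOD anti-IgM 1 and at 0.58 with NOD anti-IgM 2. Same-numbered NOD and NR4 anti-IgM arrays 2 stood at -0.12, and NOD anti-IgM 1 with NR4 anti-IgM 2 at 0.12. In each case the 2 values are not separate evidence on pairing. The NOD cultures have only 2 pairs (0.63 and 0.12), which does not establish pairing. The fit of the averaged response was tested on simulated arrays with independent noise and known changes. Those arrays held no shared lots, so that test does not cover the pairing. Members, lists and tests were chosen with earlier results of these data known. All 34 genes could be named; those that passed in any comparison are given on every array and the others by role, except that array values of Pdk1, Pkm, Ldha, Slc16a3, Rpia, Tpi1 and Pgd were added after their values were seen, and further genes as list members with the smallest p. Alternatives were quantile normalization, median shifts, other probe set choices, replicate blocks, array weights, fits on the compared groups and leaving out each array.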

Additional observations from a re-analysis of the deposited data

How the results depend on the processing

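Eno2 kept its direction and its adjusted p below 0.05 in the averaged response in each of 19 alternatives, while Slc2a1 passed in 10 of 18 and Hk2 in 6 of 19. For the averaged response, all genes passing numbered 558 with the replicate block, 637 with a random block, 506 with array weights and 495 by single probe sets, against 283. For the NOD response they numbered 7 after quantile normalization, 52 with the replicate block, 70 with a random block, 94 with array weights and 0 in a fit of the compared groups, against 21; of the 31 genes 0 passed after quantile normalization, with the lowest-numbered probe set, with the compared groups and by single probe sets. For the NR4 response all genes passing numbered 15 after quantile normalization, 229 with the replicate block, 278 with a random block and 9 in a fit of the compared groups, against 75; of the 31 genes these counts were 0, 3, 3 and 0. For the averaged strain difference they were 37 with the replicate block, 40 with a random block, 35 with array weights and 37 by single probe sets. For unstimulated cells they were 130 with array weights and 18 by single probe sets, and of the 31 genes 1, Tpi1, passed with array weights. For stimulated cells they were 15 with a random block and 4 in a fit of the compared groups.

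Leaving out each array in turn, with a single remaining NOD anti-IgM array assumed to vary like the other groups, gave 76 to 273 genes in the averaged response, 0 to 25 in NOD, 20 to 50 in NR4, 12 to 21 and 4 to 10 in the averaged and stimulated strain differences, and, of the 31 genes, 1 to 3, 0 to 1 and 0 to 1 in the 3 responses. Some differences that had not passed changed sign: with the lowest-numbered probe set Bpgm 0.0105, Hk1 -0.0446, Slc2a3 0.0625 and Tkt -0.113; with the replicate block Hk1 -0.0009, Pfkp -0.0444 and Taldo1 -0.0087; with a random block Pfkp -0.0215 and Taldo1 -0.0009; with array weights Pfkfb3 0.0513; and after quantile normalization Pfkp -0.0046. With each array left out in turn the ranges were -0.0107 to 0.20 for Aldoc, -0.10 to 0.15 for Hk1, -0.24 to 0.10 for Pfkfb3, -0.0202 to 0.11 for Pfkfb4, -0.0826 to 0.0942 for Pfkp, -0.015 to 0.26 for Slc2a6 and -0.10 to 0.12 for Taldo1. The cause was not tested. Removing the control probe sets, an alternative chosen after seeing the data, leaves Gapdh without a value.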

Other observations

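The genes whose values followed the 3 risers most closely over the 11 arrays were listed by Pearson's r, as a description of points that share arrays, groups and pooled lots. For Eno2 these were Fabp5 (0.971), Tatdn2 (0.971), Gm6377 (0.969), Odc1 (0.958) and Fosl2 (0.958). For Slc2a1 they were Hspd1 (0.965), Fam126a (0.956), Snhg16 (0.954), Itm2c (0.950) and Mafk (0.949). For Hk2 they were Rasgef1b (0.955), Trp53inp2 (0.929), Rel (0.926), Myb (0.925) and Oser1 (0.923).

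On chromosome 6, the neighbours of Eno2 and Tpi1 differed between the strains in both directions, and none passed. Cd4, the ninth protein-coding gene after Eno2, differed by -0.72 ± 0.12 between NOD and NR4 (adjusted p = 0.072 by limma), and Lag3, the next gene, by -0.67 ± 0.23 (adjusted p = 0.85 by limma). Farther along, Chd4 differed by 0.22 ± 0.09 and Ncapd2 by 0.23 ± 0.09 (adjusted p = 1.00 for each by limma). These 4 genes were chosen after their values were seen.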
